A study of Mus musculus with 6 samples.

Results

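The genes described here are the subunits of the transcription factor NF-κB and the genes of its feedback loop, in NMuMG cells treated with TGFβ1. They were chosen by symbol from the deposited gene table, which lists 21240 genes, and all 10 were found: Rela, Relb, Nfkb1, Nfkb2, Nfkbia, Nfkbib, Nfkbie, Nfkbiz, Bcl3 and Tnfaip3. NMuMG is an epithelial line from the normal mouse mammary gland. Cells grown in 10% serum with insulin were kept for 6 h in medium free of serum and insulin and then given TGFβ1 at 5 ng/ml for 2 h (the 2 h group) or 12 h (the 12 h group), or vehicle for 2 h (the vehicle group; HCl with BSA in the protocol, Tris-HCl with BSA in the sample label). Each of the 3 groups has 2 biological replicates of total RNA sequenced with a stranded kit, 6 libraries in all. All cells come from 1 line, and vehicle was sampled at 2 h only, so in the 12 h comparison a longer time without serum and insulin and the TGFβ1 treatment cannot be told apart.

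NF-κB is a family of dimeric transcription factors that wait in the cytoplasm, bound by IκB proteins. Signals from cytokine and Toll-like receptors activate the IκB kinase complex, IκB is marked for destruction, and the dimer enters the nucleus. Several NF-κB target genes encode its own brakes, among them IκBα (Nfkbia) and the ubiquitin-editing enzyme A20 (Tnfaip3), and its own subunits p105/p50 (Nfkb1), p100/p52 (Nfkb2) and RelB (Relb). In epithelial cells the pathway is known for switching on chemokines and survival genes.

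Promoter sequence was taken from RefSeq on GRCm38.p6, as the 250 bases before each annotated start. Of the 10 genes 7 had an entry, with 10 windows between them, and Nfkbiz, Nfkb1 and Relb had none. The NF-κB consensus (searched on both strands) occurred in the windows of 4 genes, Nfkbia, Nfkbie, Nfkb2 and Tnfaip3, and in 4.46% of all 27025 genes with a window. Since these genes are known as targets of NF-κB, the match is a description and no test. Printed here, with the consensus in capitals, are the first windows of the 3 genes that hold a match and were called lower at 12 h than at 2 h, an inhibitor, a subunit and A20:
Nfkbia, minus strand, chr12:55492648-55492897: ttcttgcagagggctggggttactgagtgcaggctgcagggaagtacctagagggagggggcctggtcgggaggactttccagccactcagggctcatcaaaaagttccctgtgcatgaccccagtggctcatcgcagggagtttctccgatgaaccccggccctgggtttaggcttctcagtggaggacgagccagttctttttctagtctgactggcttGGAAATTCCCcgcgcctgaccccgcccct
Nfkb2, plus strand, chr19:46304487-46304736: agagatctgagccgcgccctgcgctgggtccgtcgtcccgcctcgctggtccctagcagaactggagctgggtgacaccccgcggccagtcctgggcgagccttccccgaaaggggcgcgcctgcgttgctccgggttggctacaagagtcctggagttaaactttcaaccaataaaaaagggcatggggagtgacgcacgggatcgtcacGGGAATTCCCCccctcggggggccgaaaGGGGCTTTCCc
Tnfaip3, minus strand, chr10:19015411-19015660: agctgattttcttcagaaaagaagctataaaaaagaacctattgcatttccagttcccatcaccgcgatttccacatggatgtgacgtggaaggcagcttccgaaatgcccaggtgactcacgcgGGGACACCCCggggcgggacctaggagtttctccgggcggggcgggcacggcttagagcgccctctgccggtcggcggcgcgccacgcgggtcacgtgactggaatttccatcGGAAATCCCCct

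The match in Nfkbia lies 29 to 20 bases before the start. In Nfkb2 the palindromic match GGGAATTCCC overlaps a 2nd match shifted by 1 base, and GGGGCTTTCC lies 11 to 2 bases before the start. The Nfkbie window holds GGGGGATTCC, 106 to 97 bases before its start. The AP-1 motif TGANTCA, which reads the same on both strands, occurred in the windows of Nfkbie, Nfkb2 and Tnfaip3 and in 7.82% of all genes. The SMAD palindrome GTCTAGAC occurred in the other window of Tnfaip3, 209 to 202 bases before that start, and in 0.2% of all genes. The single windows of Rela, Nfkbib and Bcl3 held none of the 3 motifs.

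Total counts per library ranged from 14705886 to 23786993, and the 10 genes had between 108 and 6627 counts in each library (the lowest for Bcl3 at 12 h, the highest for Nfkb2 at 2 h). The response to TGFβ was checked on Smad7, Skil and Pmepa1, known TGFβ targets, and all 3 were called higher at both times. The epithelial keratins Krt8 and Krt18 and the cadherin Cdh1 were abundant in every library, but Epcam had at most 16 counts and Cldn7 was at 0 in 5 libraries. Summed over 6 epithelial markers, the level was 3299 to 3939 CPM (counts per 1000000 counted reads, with library sizes scaled by TMM factors) with vehicle, 4691 to 4784 at 2 h and 9889 to 9912 at 12 h, a rise carried by Krt8 and Krt18, while Cdh1 had 421 and 363 CPM with vehicle and 407 and 338 at 12 h. Over 7 immune markers it was 7.59 to 7.77, 7.29 to 7.72 and 5.32 to 7.14 CPM, with Cd3e at 0 and Ptprc at no more than 4 counts in any library. Cd68 made up most of this sum, with 5.95 and 6.57 CPM with vehicle and 4.14 and 6.01 at 12 h. Over 5 endothelial markers the sum was 0.177 to 0.255, 0.353 to 0.354 and 1.74 to 1.95 CPM, with Emcn at 0. Cdh5 carried most of that rise, with 1 and 2 counts with vehicle, 6 and 5 at 2 h and 39 and 36 at 12 h. Pecam1, Tek and Kdr had at most 2 counts in any library. Over 7 fibroblast markers the sum was 3.51 to 4.65, 9.13 to 9.47 and 14.8 to 16.0 CPM, with Thy1 at 0. Most of this rise was Col1a1 (0.648 and 1.28 CPM with vehicle, 10.98 and 10.84 at 12 h). Pdgfrb also rose, from 0 counts in both vehicle libraries to 2 and 3 at 2 h and 22 and 26 at 12 h. Pdgfra had 2.77 and 2.17 CPM with vehicle and 2.79 and 2.47 at 12 h, and Dcn had 10 and 1 and then 1 and 0 counts. The part of these shifts in the results below was not tested, and in bulk RNA a change in the share of a cell type and a change in RNA per cell cannot be told apart.

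At 2 h 4 of the 10 NF-κB genes were called higher than with vehicle and Nfkbiz lower, and at 12 h the calls were evenly split. All 10 genes passed the filter on low counts. The genes called higher at 2 h were Tnfaip3, Nfkbib, Nfkb1 and Rela, at an adjusted p under 0.05, against 15.2% of the 11080 genes tested (9.91% higher and 5.25% lower). At 12 h 3 were called higher (Rela, Tnfaip3 and Nfkb1) and 3 lower (Bcl3, Nfkbiz and Nfkbia), where 43.3% of all genes were called (21.8% higher and 21.5% lower). Between 2 h and 12 h 5 fell (Bcl3, Nfkbia, Nfkb2, Relb and Tnfaip3) and 0 rose, against a background of 34.1% (18.9% lower). An absolute log2FC above 1 together with the call was reached by Nfkbiz at 2 h (6.25% of all genes), by Nfkbiz and Bcl3 at 12 h (19.6%) and by Bcl3 and Nfkbia between the times (14.4%). The median log2FC of the 10 genes was 0.41 at 2 h and -0.08 at 12 h, and that of all genes tested was -0.01 and 0.02. Libraries with the same replicate number deviated together, and with the replicate number as a block the 2 h comparison called 8 of the genes, adding Nfkbia, Nfkb2 and Relb on the higher side, while the share called of all genes went to 29.1%. The 2 h count was 2 without either vehicle library or either 12 h library, 3 without 2 h replicate 2, and 5 without 2 h replicate 1. The count between the times was 2 without either 12 h library and 3 without 2 h replicate 2.

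**Figure D1:**
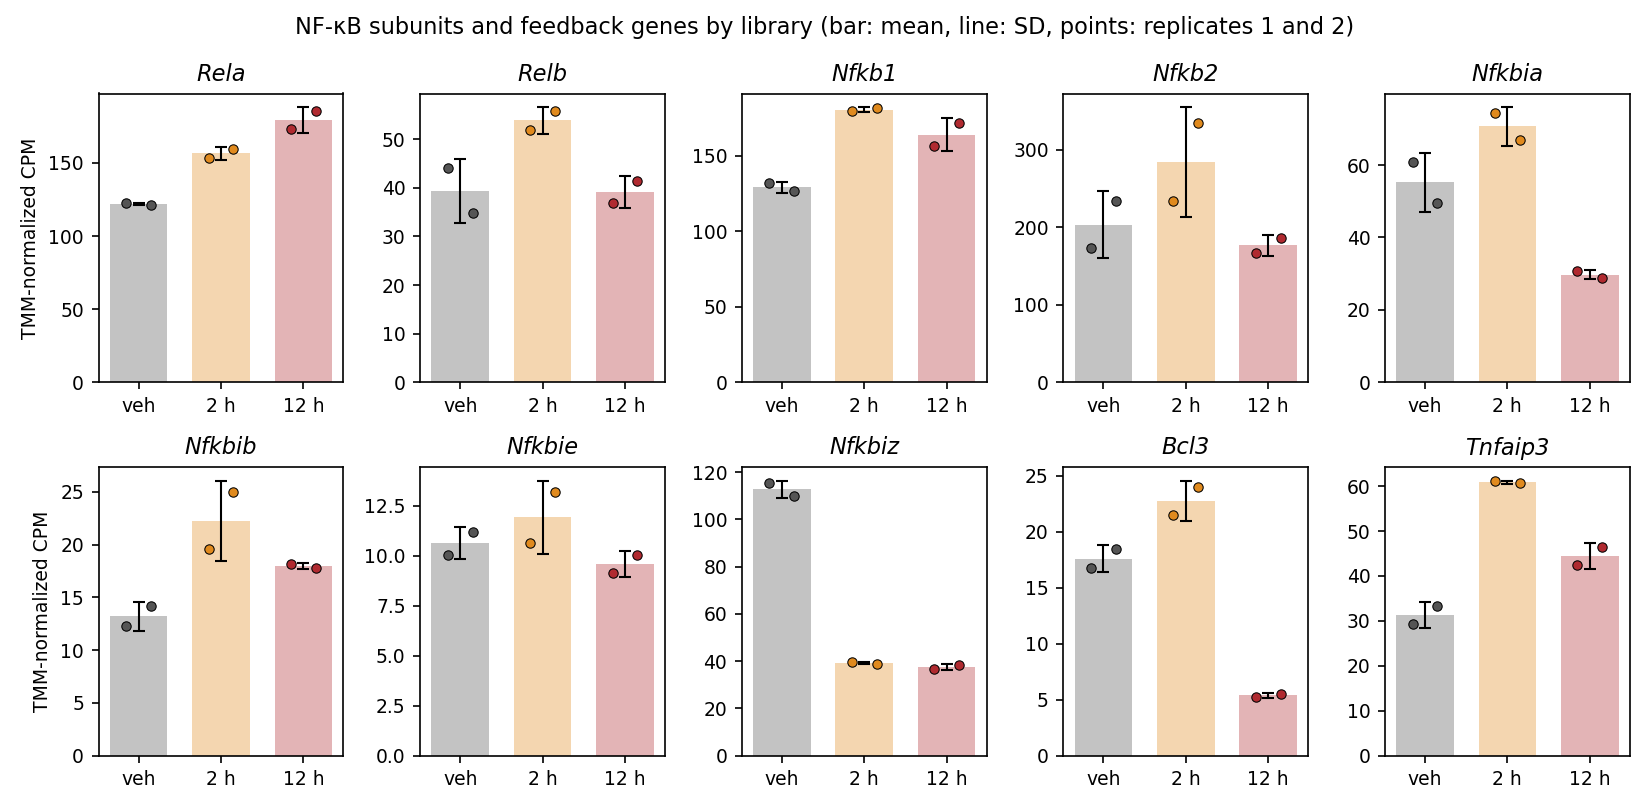
TMM-normalized CPM of each gene (y axis, linear from 0) in vehicle, 2 h and 12 h libraries (x axis). Bars are means, lines the SD and points the 2 replicates. Nfkbiz falls from above 110 to below 40 CPM in all treated libraries, Bcl3 and Nfkbia drop at 12 h only, and Rela is highest at 12 h.

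Of the transactivating subunits, Rela (Entrez 19697; p65, the main activator of the classical pathway) had 122 and 121 CPM in the vehicle libraries, 154 and 160 at 2 h and 173 and 186 at 12 h. Its groups did not overlap, with vehicle lowest and 12 h highest. The log2FC was 0.36 at 2 h (SE 0.0950, adjusted p = 0.0489) and 0.56 at 12 h (SE 0.0950, adjusted p = 0.00387). The 12 h call held in all 14 alternative analyses, including each library left out. The 2 h call held in 4 of 14 (limma-voom, DESeq2, at least 10 counts in every library, and the replicate block): it was lost among others without any one of the 6 libraries (adjusted p of 0.0628 to 0.222, with the log2FC still 0.33 to 0.37), with total counts in place of TMM factors (0.132) and without the filter on low counts (0.0634). Relb (Entrez 19698; the activating subunit of the alternative pathway) had 44.0 and 34.7 CPM with vehicle, 52.0 and 55.8 at 2 h and 36.9 and 41.5 at 12 h. Both 2 h libraries lay above all others, and the 12 h libraries lay inside the vehicle range. The log2FC at 2 h was 0.45 (SE 0.145, adjusted p = 0.0891), and with the replicate block the adjusted p was 0.0343. At 12 h it was -0.01 (SE 0.145, adjusted p = 0.965).

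Nfkb1 (Entrez 18033) encodes p105, which is cut to the DNA-binding subunit p50. It had 132 and 127 CPM with vehicle, 180 and 182 at 2 h and 156 and 172 at 12 h, so that every treated library was above both vehicle libraries. The log2FC was 0.48 at 2 h (SE 0.0985, adjusted p = 0.0218) and 0.34 at 12 h (SE 0.0984, adjusted p = 0.0292). Leaving out either vehicle library or either 12 h library ended the call at 2 h (log2FC still 0.45 to 0.51) and at 12 h (log2FC of 0.26 to 0.40). With only the 2 groups compared the 2 h call was lost (adjusted p = 0.0599), and total counts ended the 12 h call (0.126). Nfkb2 (Entrez 18034) encodes p100, which is both a precursor of p52 and an inhibitor of RelB. Its replicates differed more than those of the other 9 genes in the vehicle and 2 h groups, with 173 and 234 CPM with vehicle, 234 and 334 at 2 h and 167 and 186 at 12 h. In all 3 groups the library of replicate 2 was the higher. The log2FC at 2 h was 0.48 (SE 0.211, adjusted p = 0.185). With the replicate block it was again 0.48, with an adjusted p of 0.0105, and without 2 h replicate 1 it was 0.70 (adjusted p = 0.0367). It was 0.20 without 2 h replicate 2 (adjusted p = 0.552) and 0.28 without vehicle replicate 1 (0.581), and the other alternatives did not call it either. At 12 h the log2FC was -0.20 (SE 0.211, adjusted p = 0.472).

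Among the classical inhibitors, which hold NF-κB in the cytoplasm, Nfkbia (Entrez 18035; IκBα) had the largest change at 12 h and Nfkbib at 2 h. Nfkbia had 60.9 and 49.5 CPM with vehicle, 74.4 and 66.9 at 2 h and 30.6 and 28.8 at 12 h. The groups did not overlap, with the 2 h libraries highest and the 12 h libraries lowest. The log2FC at 2 h was 0.36 (SE 0.134, adjusted p = 0.132, and 0.0277 with the replicate block). At 12 h it was -0.90 (SE 0.136, adjusted p = 0.00243), 1.86-fold lower than with vehicle, and this call held in all 14 alternatives.

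Nfkbib (Entrez 18036; IκBβ, whose loss is slower than that of IκBα) had 12.2 and 14.1 CPM with vehicle, 19.5 and 24.9 at 2 h and 18.2 and 17.8 at 12 h. All treated libraries were above the vehicle libraries. The log2FC was 0.75 at 2 h (SE 0.171, adjusted p = 0.0311), a 1.69-fold increase. The call was lost with total counts (adjusted p = 0.0594) and with only the 2 groups compared (0.0857). It was also lost without 2 h replicate 2, when the log2FC was 0.57, and without either vehicle or either 12 h library (log2FC of 0.65 to 0.86). The later log2FC, at 12 h, was 0.45 (SE 0.171, adjusted p = 0.0761, and 0.0273 with the replicate block). Nfkbie (Entrez 18037; IκBε) was the least changed of the inhibitors. It had 10.1 and 11.2 CPM with vehicle, 10.6 and 13.2 at 2 h and 9.15 and 10.1 at 12 h, with overlap between vehicle and 2 h. Its log2FC was 0.16 at 2 h (SE 0.180, adjusted p = 0.592) and -0.15 at 12 h (SE 0.181, adjusted p = 0.547), and it was called in none of the 14 alternatives at either time.

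Nfkbiz and Bcl3 encode the atypical, nuclear IκB proteins, which bind p50 or p52 homodimers on DNA and can activate or repress. Nfkbiz (Entrez 80859; IκBζ, chromosome 16, 55811488 to 55839012 on NCBIM37, minus strand) had 115 and 110 CPM with vehicle, 39.5 and 39.0 at 2 h and 36.6 and 38.6 at 12 h. Every treated library was far below both vehicle libraries, and the replicates were close in each group. It was 2.87-fold lower at 2 h (log2FC -1.52, SE 0.0971, adjusted p = 0.000402) and lower again at 12 h (log2FC -1.58, SE 0.0972, adjusted p = 8.45e-05). Both calls held in all 14 alternatives, and at 2 h the log2FC ranged from -1.56 to -1.49 in fits that dropped a single library.

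Bcl3 (Entrez 12051, chromosome 7, 20393811 to 20408119 on NCBIM37, minus strand) followed another course. It had 16.7 and 18.4 CPM with vehicle, 21.5 and 24.02 at 2 h and 5.23 and 5.55 at 12 h. The 2 h libraries were above vehicle (log2FC 0.37, SE 0.146, adjusted p = 0.147, and 0.0666 with the replicate block). The 12 h libraries were 3.26-fold lower than vehicle (log2FC -1.71, SE 0.155, adjusted p = 0.000306), in all 14 alternatives. Relb lies 179.0 kb away on the same strand of chromosome 7, and its 12 h level was inside the vehicle range.

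Tnfaip3 (Entrez 21929; A20, which edits ubiquitin chains on signaling proteins upstream of IκB) had the largest increase of the 10 genes at 2 h. It had 29.3 and 33.3 CPM with vehicle, 61.1 and 60.6 at 2 h and 42.4 and 46.5 at 12 h. The groups did not overlap, and the 12 h libraries lay between vehicle and 2 h. The increase was 1.95-fold at 2 h (log2FC 0.96, SE 0.116, adjusted p = 0.00318), which held in all 14 alternatives. At 12 h it was 1.42-fold (log2FC 0.51, SE 0.115, adjusted p = 0.0125), lost without vehicle replicate 1 (0.0905) or 12 h replicate 2 (0.0959).

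**Figure D2:**
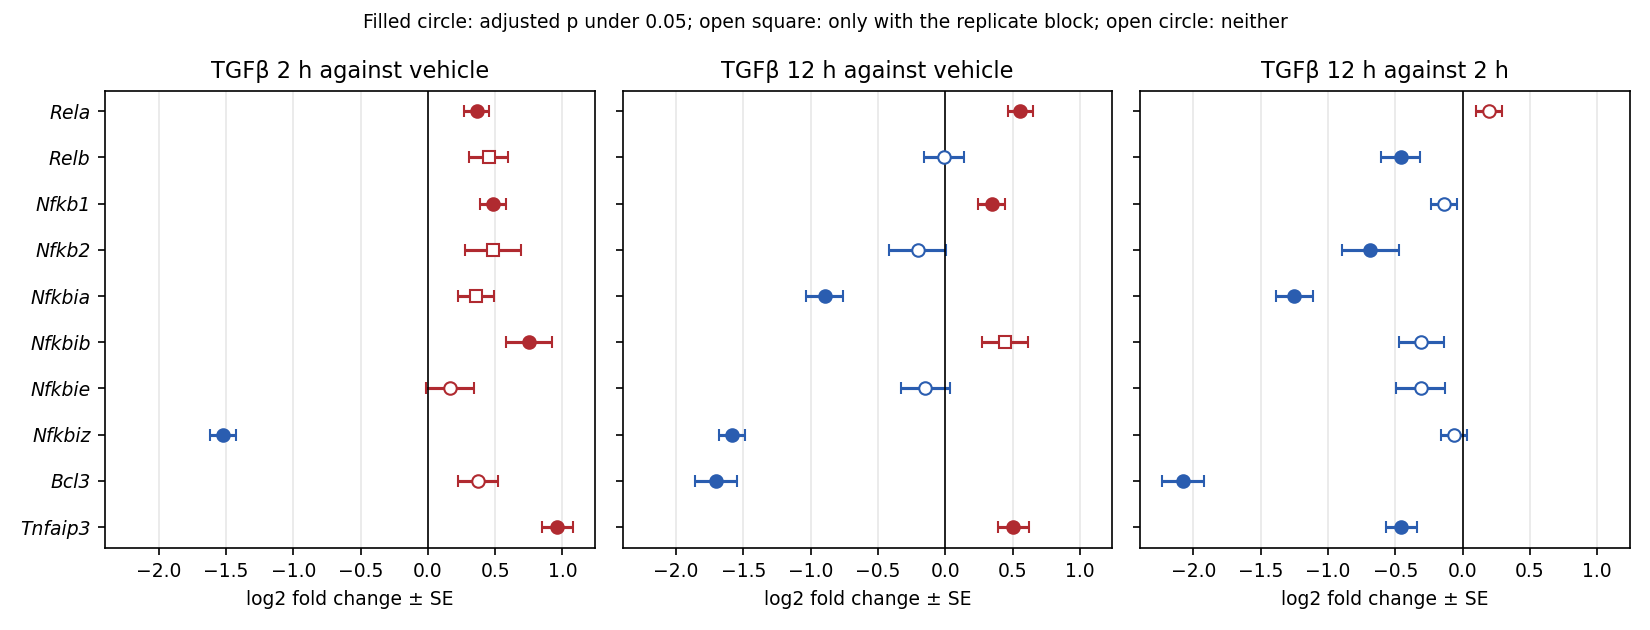
Log2 fold change (x axis) with its SE for each gene in the 3 comparisons, from 1 edgeR fit. Filled circles have an adjusted p under 0.05, open squares have one only with the replicate block, and open circles in neither. At 2 h Nfkbiz alone lies left of 0, and from 2 h to 12 h Rela alone lies right of it.

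The 12 h libraries were also compared directly with the 2 h libraries, which tests the difference between the times. Bcl3 was 4.22-fold lower at 12 h (log2FC -2.08, SE 0.155, adjusted p = 0.000393) and Nfkbia 2.38-fold lower (log2FC -1.25, SE 0.136, adjusted p = 0.00114), and both held in all 14 alternatives. Nfkb2 was lower by a log2FC of -0.69 (SE 0.211, adjusted p = 0.0456), Relb by -0.46 (SE 0.145, adjusted p = 0.0488) and Tnfaip3 by -0.45 (SE 0.114, adjusted p = 0.0227). The call for Nfkb2 was lost without 2 h replicate 2, when its log2FC was -0.41 (adjusted p = 0.135), without 12 h replicate 1 (0.215) or 2 (0.147), and with limma-voom (0.0505). That for Relb was lost without any one 2 h or 12 h library (0.0568 to 0.238) and with DESeq2 size factors (0.0502), and that for Tnfaip3 without 12 h replicate 1 (0.147) or 2 (0.0788). Nfkbiz did not differ between the times beyond the spread (log2FC -0.06, SE 0.0964, adjusted p = 0.652). Rela was the 1 gene with a higher mean at 12 h than at 2 h (log2FC 0.20, SE 0.0945, adjusted p = 0.157).

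Levels were compared between genes as CPM per kb of exon, using the exon union of each gene's GENCODE models (NCBIM37, which is mm9), which need not equal the models used for counting. With vehicle Nfkb2 had the highest level, 61.9 ± 13.2 (SD, n = 2), followed by Rela with 44.8 ± 0.312, Nfkbia with 35.01 ± 5.15, Nfkb1 with 27.0 ± 0.796 and Nfkbiz with 22.5 ± 0.733. Relb stood at 10.1 ± 1.69, Bcl3 at 7.07 ± 0.481, Nfkbib at 6.09 ± 0.619, Nfkbie at 4.40 ± 0.336 and Tnfaip3 at 4.33 ± 0.391. In this order only Nfkbie and Tnfaip3 overlapped as neighbors. At 2 h Nfkbiz went from rank 5 to rank 9, with 7.82 ± 0.0733 per kb, and Nfkbib and Bcl3 overlapped. At 12 h Rela led with 66.1 ± 3.23, above Nfkb2 with 53.7 ± 3.98, and Bcl3 was last with 2.17 ± 0.0905. The subunit genes Rela, Nfkb2 and Nfkb1 were thus among the 4 highest in every group, together with Nfkbia.

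**Figure D3:**
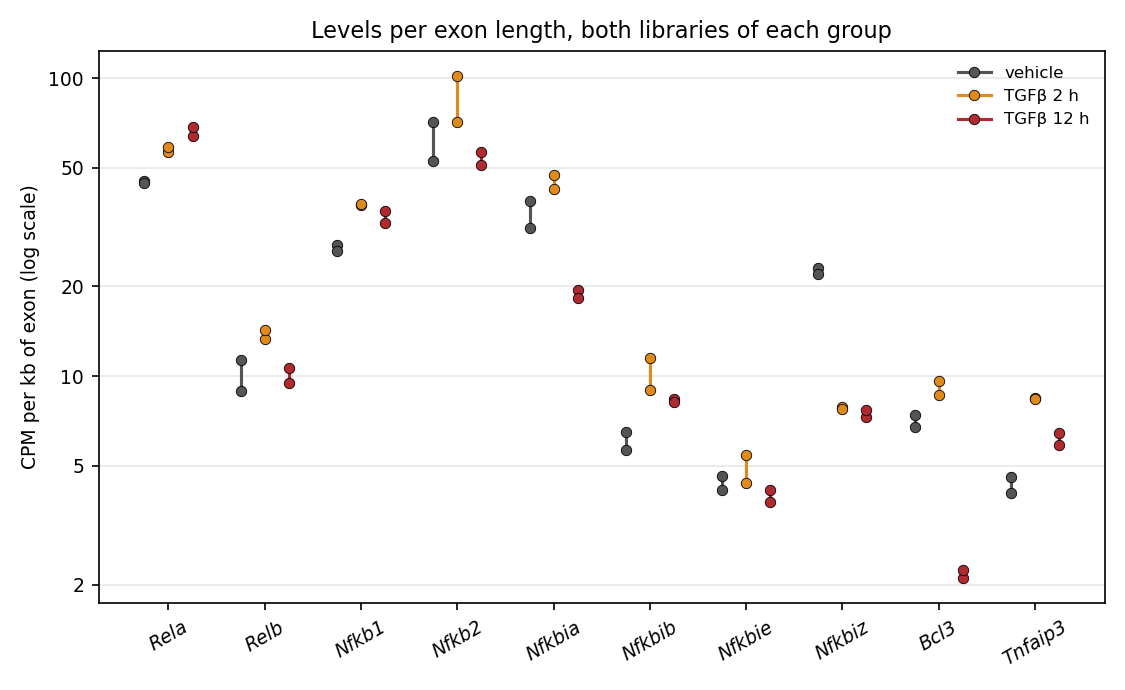
CPM per kb of exon (y axis, log scale) for each gene, with both libraries of vehicle, 2 h and 12 h joined by a line. The largest shift between groups is the drop of Bcl3 at 12 h to 2.17 per kb.

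The similarity of courses was described by Pearson's r of log2 CPM over the 6 libraries, without a test, since the libraries fall into 3 groups that all genes share. The most alike genes within the family were Nfkbie and Nfkb2 (r = 0.965) and Nfkbia and Bcl3 (0.960), followed by Nfkb1 and Tnfaip3 (0.952). Nfkbiz had no close partner in the family, its highest r being 0.375 with Bcl3 and its lowest -0.936 with Rela. Over all genes tested the closest course was that of Ctnnb1 for Nfkbia, Wnt4 for Bcl3, Zfp367 for Nfkbiz and Slc25a25 for Tnfaip3 (r from 0.996 to 0.999). For the other genes it was Pkig (Rela), Stk19 (Nfkb1), Cdt1 (Nfkb2), Fam72a (Nfkbie), Gatad2b (Nfkbib) and Btbd2 (Relb), with r from 0.981 to 0.999. The number of genes with an r above 0.99 ranged from 0 for Relb to 46 for Rela, with 41 for Bcl3. A gene named here therefore need not be particular to its partner.

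The rest of the pathway was read from 4 lists of 84 genes in all, of which 67 passed the filter on low counts. At 2 h 14 of them were higher and 8 lower, and at 12 h 19 were higher and 20 lower, beside the 15.2% and 43.3% of all genes called. The 22 calls at 2 h were 9 without vehicle replicate 1 and 12 without vehicle replicate 2, and the 39 at 12 h were 23 without 12 h replicate 1 and 19 without 12 h replicate 2. Of the genes tested, 3 (Cd40, Tnip3 and Ccl20) passed the filter through 1 group alone, the one where they are high. The filter fixed the direction of their difference from that group, though not a call, so their values are given below without a test. For Cd40 neither the vehicle nor the 2 h group reached the filter. The counts here and below include the 2 calls of these genes at 2 h and 3 at 12 h. Receptors that feed NF-κB changed in both directions: of 11 tested, 5 were higher and 2 lower at 2 h, and 4 were higher and 5 lower at 12 h. Tlr2 (a receptor for bacterial lipoproteins) had 8.78 and 7.33 CPM with vehicle, 35.2 and 28.0 at 2 h and 4.58 and 6.22 at 12 h, with a log2FC of 1.97 at 2 h (SE 0.217, adjusted p = 0.00235) and -0.58 at 12 h (adjusted p = 0.0760, and 0.0433 with the replicate block). Tlr4 (the endotoxin receptor) fell by 1.08 on the log2 scale at 2 h (adjusted p = 0.0369) and by 1.83 at 12 h (0.00209). Tlr3 (the receptor for double-stranded RNA) fell by 1.53 (0.00697) and by 2.04 (0.000746). Tnfrsf12a (the TWEAK receptor) rose by a log2FC of 1.40 (0.00708) and 1.88 (0.000715), and Cd40, which activates the alternative pathway, went from 1 count in each vehicle library to 9 and 12 at 2 h and 150 and 112 at 12 h.

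Of the signal-carrying adaptors, ubiquitin ligases and kinases, 22 were tested: 2 were higher and 2 lower at 2 h, and 4 were higher and 3 lower at 12 h. These shares are near the 15.2% of all genes called at 2 h and below the 43.3% at 12 h. With the replicate block 2 were higher and 5 lower at 2 h, and 5 were higher and 5 lower at 12 h, where the block called 29.1% and 55.3% of all genes. The median log2FC was -0.04 and -0.11. Traf5 (an adaptor of TNF receptors) had a log2FC of -1.46 at 2 h (adjusted p = 0.0112) and -1.24 at 12 h (0.00703). Traf3 (an inhibitor of the alternative pathway) had 0.57 (0.0229) and 0.63 (0.00577), and Birc2 (cIAP1, a ubiquitin ligase) -0.62 (0.00915) and -0.24 (0.0963). At 12 h Irak2 (a kinase-like adaptor of the IL-1 receptor) was higher (0.54, adjusted p = 0.00875) and Ikbke (IKKε) lower (-0.49, adjusted p = 0.0128).

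Of 17 other regulators tested, 2 were higher and 1 lower at 2 h and 4 were higher and 4 lower at 12 h, near the 15.2% and 43.3% of all genes called. With the replicate block 9 and 12 were called, where the block called 29.1% and 55.3% of all genes. The RNA-degrading enzyme Zc3h12a, a brake on inflammatory transcripts, had a log2FC of 0.83 at 2 h (adjusted p = 0.0114) and 0.88 at 12 h (0.00309), while its relative Zc3h12c had -1.18 (0.00141) and -1.03 (0.000628). The deubiquitinase Otud7b had 0.40 at 2 h (0.112, and 0.0388 with the block) and 0.86 at 12 h (0.00327). Irak3 had -0.31 (0.579) and -1.39 (0.0180). Tnip3, which binds A20, had 7.01 and 1.98 CPM with vehicle, 1.82 and 0.555 at 2 h and 1.05 and 0.514 at 12 h. Rel, the gene of the remaining subunit c-Rel, was low, with 3.83 and 4.78 CPM with vehicle, 6.23 and 7.37 at 2 h and 4.66 and 4.32 at 12 h, with an adjusted p of 0.0977 for 2 h against vehicle (0.0362 with the block).

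Textbook NF-κB target genes were tested for 17 of 30, the others being below the filter, and they split: 5 were higher and 3 lower at 2 h, and 7 were higher and 8 lower at 12 h, where 15.2% and 43.3% of all genes were called. The chemokine genes did not move together: Cxcl5 and Cxcl1 were lower at both times, Ccl7 was higher at both (log2FC 1.54, adjusted p = 0.00785, and 1.32, adjusted p = 0.00473), and Ccl2 was higher at 2 h and lower at 12 h. Ccl7 and Ccl2 were outside the naming rule and were named after their values were seen. Cxcl5 (a neutrophil attractant) had 401 and 157 CPM with vehicle, 39.6 and 14.6 at 2 h and 2.14 and 1.80 at 12 h, with no overlap between groups (log2FC -3.36, adjusted p = 0.0123, and -7.14, adjusted p = 0.000514). Cxcl1 (another neutrophil attractant) had 43.0 and 20.1, then 5.92 and 4.29, then 2.22 and 2.31 CPM (log2FC -2.63, adjusted p = 0.00621, and -3.80, adjusted p = 0.000593). Ccl20, which attracts lymphocytes, had 130 and 80 counts with vehicle, 12 and 12 at 2 h and 0 and 1 at 12 h. The acute-phase gene Saa3 had 88 and 31 counts with vehicle, 80 and 15 at 2 h (adjusted p = 0.684) and 0 in both libraries at 12 h (0.0124). Gadd45b, a stress gene that TGFβ is also known to induce, rose by a log2FC of 2.52 (adjusted p = 0.000234) and 2.96 (4.06e-05).

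**Figure D4:**
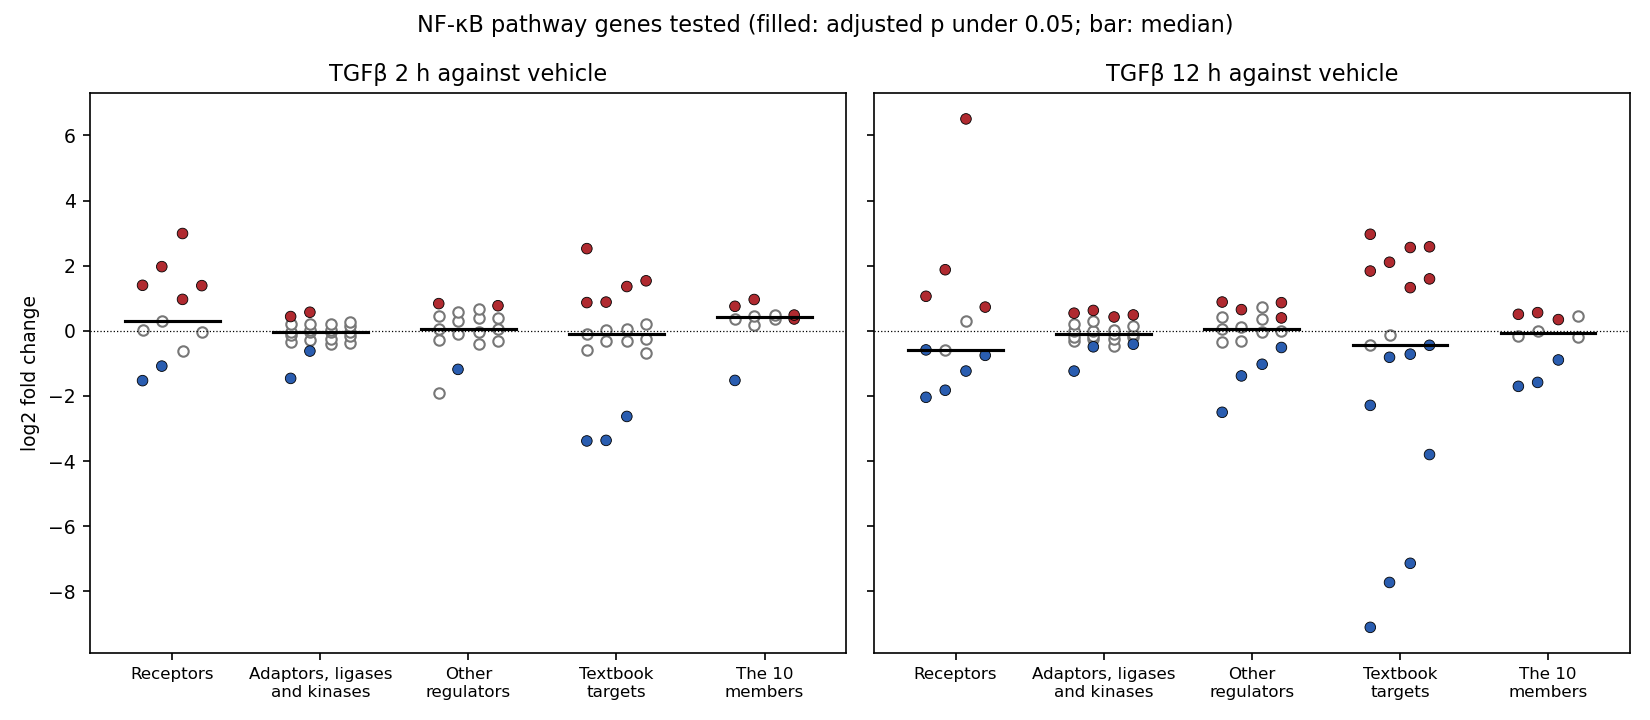
Log2 fold change (y axis) at 2 h and 12 h of each tested gene of the 4 pathway lists and of the 10 NF-κB genes. Filled points have an adjusted p under 0.05 and bars are medians. Cd40, Tnip3 and Ccl20, which passed the filter only through the group where they are high, are included, and their calls are not read as tests. Adaptors and kinases lie between -1.46 and 0.63, and targets between -9.10 and 2.96; the lowest point is Saa3, whose value depends on the prior count because both 12 h libraries are at 0.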

How the data were processed

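Per the paper's methods and the labels, the authors filtered reads of 50 bases, aligned them to mm9 with the subjunc function of Rsubread, kept unique reads, removed duplicates with SAMtools 0.1.19 and counted exons of KnownGene genes on the reverse strand with featureCounts. The deposited values are raw counts per gene. The genes that overlap Nfkbib, Nfkb2 and Bcl3 in GENCODE lie on the opposite strand.

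Differences were tested in R 4.3.3 with edgeR 4.0.16 (quasi-likelihood test, two-sided, TMM factors, 1 fit of the 3 groups, genes kept at 2 CPM or more, before TMM scaling, in 2 libraries or more, Benjamini-Hochberg adjustment over all 11080 genes tested in a contrast). The SE is the absolute log2FC divided by the square root of F. Log2 CPM used a pseudocount of 0.25. Called means an adjusted p under 0.05. The 10 genes and the lists were chosen with earlier results of these data known. The genes named from each list are up to 5 with an adjusted p under 0.05 at either time and the largest absolute log2FC; Rel was named as the remaining subunit, and Ccl7, Ccl2 and the genes of the closing section after their values were seen. Emr1, an immune marker, was not matched by its symbol.

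The replicate number was taken as a block in an alternative fit because deviations from group means correlated across genes between libraries of the same number (0.708 for vehicle and 2 h, 0.263 for vehicle and 12 h, 0.392 for 2 h and 12 h). The labels do not say what a number shares. The other alternatives were limma-voom (limma 3.58.1), DESeq2 1.42.0, DESeq2 size factors, total counts, 2 other filters on low counts, only the 2 groups compared, and each library left out.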

Additional observations from a re-analysis of the deposited data

Results flagged for a closer look

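The effect at 12 h differed from that at 2 h, by the direct test of the 12 h against the 2 h libraries (edgeR's quasi-likelihood test), for 5 of the 10 genes, where 34.1% of all genes tested were called (18.9% lower). The log2FC between the times was -2.08 for Bcl3, -1.25 for Nfkbia, -0.69 for Nfkb2, -0.46 for Relb and -0.45 for Tnfaip3. Both 12 h libraries lay below both 2 h libraries for 9 of the 10 genes, called or not, so this does not set these 5 apart. The calls for Bcl3 and Nfkbia held without any single library, while the count fell to 2 without either 12 h library and to 3 without 2 h replicate 2, with Nfkb2, Relb and Tnfaip3 losing their calls as given in the report. Against vehicle, Bcl3 and Nfkbia had positive values at 2 h (0.37 and 0.36, neither called). With the replicate block Nfkbia was called at 2 h and Bcl3 was not. At 12 h both genes had negative values (-1.71 and -0.90, both called). Both comparisons share the vehicle libraries.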

How the results depend on the processing

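No called log2FC of the 10 genes changed sign in any of the 14 alternatives. The number of the 10 genes called at 2 h was 5, and it was 8 with the replicate block, 3 with total counts, 2 with only the 2 groups compared and 2 to 5 with each library left out. Beyond 3 calls at 2 h (Nfkbia, Nfkb2 and Relb), the block added Nfkbib at 12 h and changed no other call of the 10 genes. At 12 h the number was 4 to 7 with each library left out, beside 6, and for 12 h against 2 h it was 2 to 5, beside 5. Of the pathway lists, 22 genes were called at 2 h (9 to 25 with each library left out) and 39 at 12 h (19 to 44). Total counts moved the median log2FC of all genes to -0.12 at both times, and 3 of the single-gene calls were lost and 0 gained. A fit with 5 libraries assumes that the lone library of a group varies like the others. Fits with fewer libraries also have less power: without any single library Rela at 2 h kept a log2FC of 0.33 to 0.37 and Nfkb1 one of 0.45 to 0.51 where the call was lost.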

Other observations

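Among the textbook targets, genes outside the naming rule, chosen after their values were seen, moved in both directions at 12 h. The log2FC at 12 h was 2.58 for Ptgs2 (the prostaglandin synthase COX-2, edgeR's adjusted p = 0.000124), 2.56 for Csf1 (9.1e-05), 2.11 for Lif (0.000436) and 1.83 for Ier3 (0.00146). In the other direction it was -2.29 for Vcam1 (0.000133) and -0.81 for Sod2 (0.00226). Ccl2, a monocyte attractant, was higher at 2 h (log2FC 0.88, adjusted p = 0.00839) and lower at 12 h (-0.44, adjusted p = 0.0397). The deubiquitinase Cyld had -0.40 at 2 h (0.0909) and 0.36 at 12 h (0.0648), and was higher at 12 h than at 2 h by 0.76 (0.00585).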
